A study of Mus musculus with 24 samples.

Results

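Retinoid and visual cycle genes encode the enzymes and carriers that make, move and use vitamin A in the eye, and 9 of them were examined for SOX and histone mark peaks in developing mouse retina: Rbp3, Rdh5, Rdh8, Rdh10, Rdh12, Rpe65, Lrat, Rgr and Stra6. The genes were chosen by symbol. All 9 were found among 21883 protein-coding genes of the RefSeq table of GRCm38.p6, a patch release of GRCm38, the genome build that the submitters' processing notes name. The window of a gene was its RefSeq span extended by 5 kb at each end, and 1 bp of overlap with this window counted as a peak at the gene.

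The study profiled whole retina of wild-type mice by CUT&RUN at postnatal days 2 and 17, called P2 and P17. In CUT&RUN an antibody brings a nuclease to a chromatin protein and the released DNA fragments are sequenced. At each age there were 4 libraries for SOX8 (2 antibodies with 2 replicates each) and 2 each for SOX9, H3K4me3, H3K27ac and a nonspecific IgG. Nuclei came from retina with no sorting of cell types named in the labels, which also give no strain or number of animals. The data used here were 8 deposited peak lists, 1 for each target and age, and the IgG libraries were not analysed here.

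The lists held from 2400 to 5476 peaks for the SOX factors, 9134 and 9629 for H3K4me3, and 287845 at P2 against 29909 at P17 for H3K27ac. Each list gives positions only, with no height, p-value or replicate, so no replicate error could be computed, no test was run, and the depth behind a peak is unknown. Absence of a peak means that none was listed there, which is not the same as absence of signal. In whole retina, fewer cells of a type and less signal per cell cannot be told apart.

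When light strikes a visual pigment, its retinal chromophore changes shape and must be replaced, and the visual cycle makes the new chromophore. In photoreceptors the spent retinal is reduced to retinol. It then passes to the retinal pigment epithelium, the layer behind the photoreceptors, where it is esterified, isomerised, oxidised and sent back. Müller glia, the main glia of the retina, also handle retinoids, and retinaldehyde is in addition the source of retinoic acid, a signal in eye development. H3K4me3 marks active promoters, H3K27ac marks active promoters and enhancers, and SOX8 and SOX9 are related transcription factors of glia and progenitors.

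The upstream sequences of 6 genes are shown because the results turn on which starts carry a peak. They span the 250 bases before the transcription start, 5′ to 3′, from the RefSeq promoter table of GRCm38.p6, which has entries for 8 of the 9 genes and none for Rdh10. Rbp3 (chr14:33953753-33954002 on the plus strand) was the gene of these 8 whose start lay under a SOX peak. Rdh8 (chr9:20818244-20818493 on the plus strand) and Rdh12 (chr12:79208663-79208912 on the plus strand) had H3K4me3 over the start at P17 and not at P2. The start of Lrit1 (chr14:37054580-37054829 on the plus strand), a neighbour that overlaps Rgr, lay under the P17 SOX9 peak counted for Rgr. Rpe65 (chr3:159598931-159599180 on the plus strand) and Lrat (chr3:82903975-82904224 on the minus strand) had no SOX or H3K4me3 peak. Capitals mark the cores ACAAT and ACAAAG, which SOX proteins recognise, and TAATCC, the core recognised by the photoreceptor and pigment epithelium homeodomain proteins CRX and OTX2 when read on either strand. They were searched on both strands over 300 bases, from 250 before to 50 after the start, and no match of 1 core overlapped another in the lines shown.
Rbp3: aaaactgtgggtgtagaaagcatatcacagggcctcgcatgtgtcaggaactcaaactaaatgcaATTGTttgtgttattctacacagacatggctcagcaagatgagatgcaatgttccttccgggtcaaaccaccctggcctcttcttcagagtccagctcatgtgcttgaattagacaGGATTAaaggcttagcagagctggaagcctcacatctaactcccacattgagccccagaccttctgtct
Rdh8: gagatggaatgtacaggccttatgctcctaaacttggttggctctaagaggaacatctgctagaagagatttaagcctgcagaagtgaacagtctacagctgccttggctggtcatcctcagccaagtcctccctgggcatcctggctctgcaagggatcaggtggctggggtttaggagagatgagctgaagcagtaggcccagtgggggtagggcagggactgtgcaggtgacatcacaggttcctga
Rdh12: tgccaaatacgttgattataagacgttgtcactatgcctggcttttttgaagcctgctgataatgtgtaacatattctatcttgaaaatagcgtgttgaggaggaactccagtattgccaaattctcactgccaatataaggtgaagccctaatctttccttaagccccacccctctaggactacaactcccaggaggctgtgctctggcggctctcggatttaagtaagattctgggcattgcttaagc
Lrit1: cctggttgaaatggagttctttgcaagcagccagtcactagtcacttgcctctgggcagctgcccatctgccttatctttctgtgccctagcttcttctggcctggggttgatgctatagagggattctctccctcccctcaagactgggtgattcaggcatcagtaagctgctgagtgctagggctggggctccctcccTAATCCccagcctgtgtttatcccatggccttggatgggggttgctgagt
Rpe65: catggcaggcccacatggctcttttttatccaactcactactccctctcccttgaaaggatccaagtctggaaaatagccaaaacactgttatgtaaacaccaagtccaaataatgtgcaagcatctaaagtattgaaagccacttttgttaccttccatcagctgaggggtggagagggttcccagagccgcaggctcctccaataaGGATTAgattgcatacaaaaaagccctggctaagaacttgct
Lrat: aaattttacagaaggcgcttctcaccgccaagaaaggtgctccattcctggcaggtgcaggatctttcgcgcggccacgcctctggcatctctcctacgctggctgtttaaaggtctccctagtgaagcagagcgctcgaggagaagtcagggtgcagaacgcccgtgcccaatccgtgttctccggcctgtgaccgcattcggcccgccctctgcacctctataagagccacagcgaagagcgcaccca

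Among all 21262 promoters of protein-coding genes in that table, 27.7% held ACAAT, 16.8% held ACAAAG and 6.42% held TAATCC. Of these cores, ACAAT was found in 3 of the 8 genes (Rbp3, Rdh5 and Stra6), ACAAAG in 1 (Stra6) and TAATCC in 3 (Rbp3, Rpe65 and Rgr). Counted by promoter, as for the shares above, they were found in 4, 2 and 3 of 11. In Rbp3 the SOX core lay at -185 to -181 and the CRX and OTX2 core at -69 to -64, both on the strand opposite to the gene and counted with the start as 0. The CRX and OTX2 core lay at -42 to -37 in Rpe65, at -167 to -162 in Rgr and at -50 to -45 in Lrit1. Rdh8, Rdh12 and Lrat held none of these letters in the window. The promoter of Lrat was also the CpG-rich one of the group, with 21 CpG dinucleotides in 300 bases, where the other 10 promoters of these genes (Stra6 has 4) held 0 to 10 and the median of all promoters was 13.

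SOX peaks lay at 6 of the 9 genes, where 33.8% of all protein-coding genes had one in at least 1 list. The lists differed between ages for 5 of the 6. Such differences were common over all genes. SOX9 was listed at P2 alone for 16.3% of all genes, at P17 alone for 4.34% and at both ages for 11.4%. P2 SOX8 peaks lay at 1 gene (Rdh10), against 15.1% of all genes, and P17 SOX8 peaks at 3 (Rbp3, Rdh8 and Rdh10), against 13.0%. P2 SOX9 peaks lay at 3 genes (Rdh5, Rdh10 and Stra6), against 27.7% of all genes, so this count is near the background. P17 SOX9 peaks lay at 4 genes (Rbp3, Rdh8, Rdh10 and Rgr), against 15.7%. These counts depend on the window and on shared peaks. With no flank, P17 SOX8 peaks lay at 1 gene (Rdh10), against 10.9% of all genes, and as many at P2, against 13.1%. P17 SOX9 peaks then lay at 2 (Rbp3 and Rdh10), against 13.5%. With each peak given to the nearest gene, 1 gene was left for P17 SOX8 (Rdh10; 9.52% of all genes) and 1 for P2 SOX9 (Stra6; 21.7%). For P17 SOX9 1 was left (Rbp3; 11.1%), and for P2 SOX8 0 (11.4%). The median window of the 9 genes was 23752 bp, against 27170 bp for all genes.

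H3K4me3 peaks lay at 3 genes at P2 (Rbp3, Rdh5 and Rdh10; 49.3% of all genes) and at 6 at P17 (the same 3 with Rdh8, Rdh12 and Rgr; 50.9% of all genes). H3K27ac peaks lay at 8 of 9 genes at P2 (81.8% of all genes) and at 7 of 9 at P17 (57.0%). The part of the window under H3K27ac had a median of 39.8% over the 9 genes at P2 and 54.8% at P17, where the medians over all genes were 20.9% and 4.85%. Rpe65 alone had no peak in any of the 8 lists, as did 17.7% of all genes, and Rdh10 alone had one in every list, as did 6.32% of all genes.

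**Figure D1:**
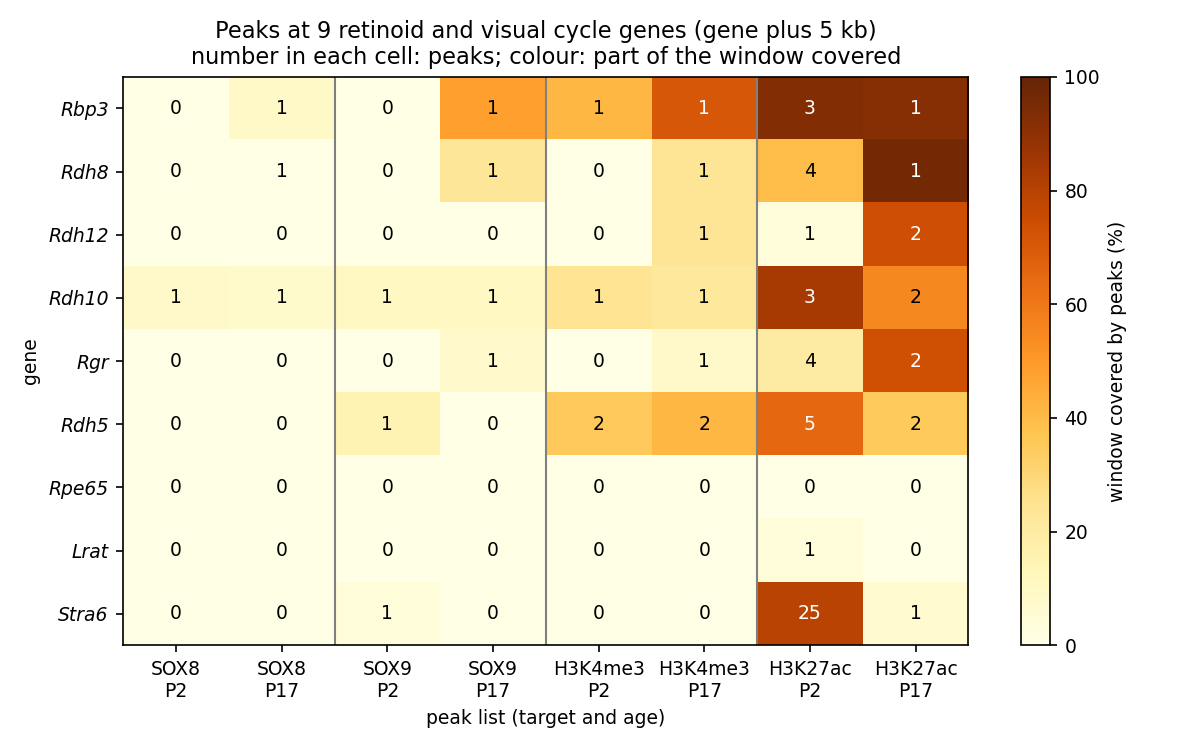
Number of peaks (digits) and percent of the window of gene plus 5 kb covered by peaks (colour) for each of the 9 genes (rows) in each of the 8 lists (columns). Rdh10 has a peak in every column and Rpe65 in none, and P17 SOX9 covers 48.2% of the Rbp3 window.

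The photoreceptor genes Rbp3, Rdh8 and Rdh12 had no SOX peak at P2. Most genes lacked one: 15.1% of all genes had a P2 SOX8 peak and 27.7% a P2 SOX9 peak. Rbp3 encodes the retinoid-binding protein that photoreceptors secrete into the space between them and the pigment epithelium. Its gene spans chr14:33954003-33964219 on the plus strand. The P17 SOX9 list had a peak of 9737 bp at chr14:33951348-33961084, which ran from position -2655 to position 7081 relative to the Rbp3 start and covered 48.2% of the window. This peak was wider than or as wide as 92.7% of the P17 SOX9 list, whose median width was 5336 bp. The nearest P2 SOX9 peak lay 345627 bp from the gene.

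A P17 SOX8 peak of 3780 bp lay at chr14:33947060-33950839, upstream of Rbp3 and over the near end of its neighbour Gdf2, a growth factor gene. It ended 3164 bp before the Rbp3 start, and 508 bp separated it from the SOX9 peak, so the SOX8 and SOX9 peaks at Rbp3 did not overlap. The SOX9 peak lay wholly within H3K4me3 and H3K27ac of the same age. The SOX8 peak lay wholly within P17 H3K27ac and outside H3K4me3.

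Rbp3 had the widest H3K4me3 peak of the 9 genes at P17, while at P2 that of Rdh10 (8985 bp) was wider. The H3K4me3 peak over the Rbp3 start spanned 8343 bp at P2 and 14359 bp at P17, ranks 175 and 35 by width in their lists. H3K27ac covered 92.7% of the window at P2, in 3 peaks that reached into the neighbouring zinc finger gene Zfp488, and 92.0% at P17, in 1 peak of 22185 bp that reached Gdf2 and Zfp488. Listed H3K27ac peaks thus covered nearly the same part of the Rbp3 window at both ages, while SOX9 peaks were listed only at P17. The whole P2 H3K27ac list covered 525.43 Mb and the P17 list 173.37 Mb, so equal coverage need not mean equal acetylation.

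Rdh8 encodes the retinol dehydrogenase of photoreceptor outer segments, which reduces the retinal released from bleached pigment. Its gene spans chr9:20818494-20828058 on the plus strand. A P17 SOX9 peak of 5396 bp at chr9:20812565-20817960 ended 534 bp before the Rdh8 start and covered the start of Col5a3, a collagen gene that is read in the opposite direction. Of this peak, 842 bp overlapped P17 H3K4me3. The P17 SOX8 peak at Rdh8 was only 49 bp wide, lay inside the SOX9 peak and belonged to the 12 peaks of that list under 100 bp, so Rdh8 had no SOX8 peak once those were left out.

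Rdh8 had no H3K4me3 peak at P2, the nearest being 58264 bp away, and 1 of 4633 bp over its start at P17. At P2, H3K27ac formed 4 peaks of 674 to 4622 bp covering 39.8% of the window, the widest over the start. At P17 it formed 1 peak of 21187 bp covering 96.1%.

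Rdh12 encodes the retinol dehydrogenase of photoreceptor inner segments and had no SOX peak at either age. Its gene spans chr12:79208913-79222664 on the plus strand. H3K4me3 was listed at P17, as a peak of 5640 bp over the start, and not at P2. H3K27ac went from 1 peak of 766 bp inside the gene at P2, at the 17.5 percentile of width, to 2 peaks of 16544 bp over the gene and 28832 bp over its neighbour Zfyve26 at P17, and from 3.22% to 74.2% of the window. The closest P17 SOX9 peak was 17888 bp from the gene. Rdh8 and Rdh12 thus shared H3K4me3 at P17 without a P2 peak, seen in the windows of 5.0% of all genes, but not a SOX9 peak. Among all 1094 genes with H3K4me3 at P17 and not at P2, 15.8% had a P17 SOX9 peak, close to the share of all genes.

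**Figure D2:**
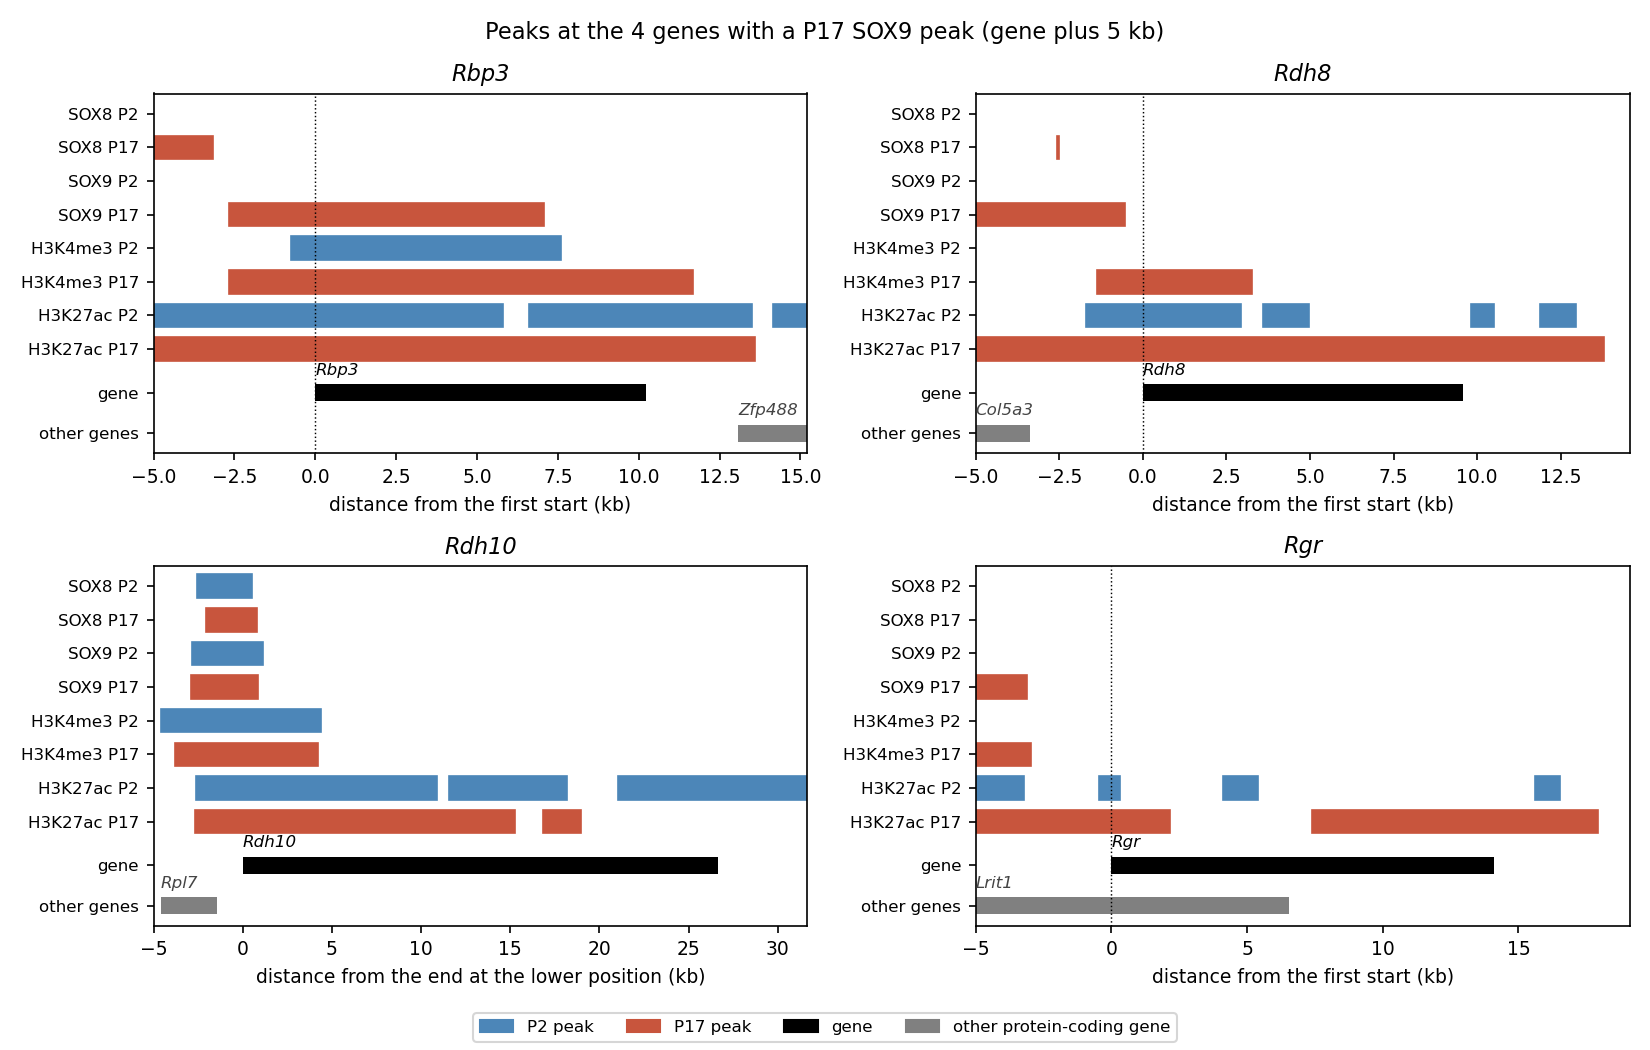
Peaks of the 8 lists (rows) along the windows of Rbp3, Rdh8, Rdh10 and Rgr, with distance in kb from the start of the gene (dotted line; from the end at the lower position for Rdh10), in the direction of transcription where a strand is given, and peaks cut at the window's ends. SOX9 at P17 crosses the start of Rbp3, stops 534 bp short of that of Rdh8 and lies 3099 bp or more before that of Rgr; bars have a thin outline, which widens the 49 bp SOX8 peak at Rdh8.

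Rdh10 and Rgr act in Müller glia and pigment epithelium. Rdh10 encodes a retinol dehydrogenase that makes retinaldehyde for retinoic acid synthesis and for the visual cycle. Its gene spans chr1:16105882-16132550. All 4 SOX lists had a peak at the end of Rdh10 with the lower position, as was the case for 6.45% of all genes. The SOX8 peaks spanned 3096 bp at P2 (chr1:16103323-16106418) and 2844 bp at P17 (chr1:16103845-16106688), and the SOX9 peaks 3956 bp at P2 (chr1:16103045-16107000) and 3791 bp at P17 (chr1:16102959-16106749).

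The peaks at Rdh10 lay nearly on top of each other. The SOX8 peaks of the 2 ages shared 2574 bp, the SOX9 peaks shared 3705 bp, and each SOX8 peak lay wholly within the SOX9 peak of its age. All 4 also overlapped the near end of Rpl7, a ribosomal protein gene 1449 bp from Rdh10, and peaks in this space cannot be assigned to either gene by position. All 4 lay within H3K4me3 peaks of 8985 bp at P2 and 7992 bp at P17. Relative to their lists the SOX9 peaks differed: the P2 peak was at the 87.3 percentile of width and the P17 peak at 25.3. H3K27ac covered 83.8% of the window at P2 and 54.8% at P17.

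Rgr encodes an opsin of Müller glia and pigment epithelium that binds retinal and takes part in chromophore renewal. Its gene spans chr14:37034909-37049014 on the minus strand and overlaps the span of Lrit1, which is read in the opposite direction and encodes a photoreceptor membrane protein. No SOX or H3K4me3 peak was listed at Rgr at P2. At P17 a SOX9 peak of 6184 bp (chr14:37052113-37058296) and an H3K4me3 peak of 7440 bp (chr14:37051967-37059406) reached into the window. They stopped 3099 and 2953 bp before the Rgr start. Both covered the start of Lrit1 and neither reached that of Rgr.

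The Rgr start carried H3K27ac at both ages, as a peak of 783 bp at P2 and at P17 as the edge of a peak of 67469 bp (chr14:37046840-37114308). That peak ranked 122 by width among the 29909 of its list and covered the starts of Rgr, Lrit1, Lrit2, Cdhr1 and 2610528A11Rik. A second P17 H3K27ac peak of 10532 bp overlapped the other end of Rgr.

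The remaining genes, Rdh5, Rpe65, Lrat and Stra6, are known for their work in the pigment epithelium. None had H3K4me3 over its own start at either age, and none had a SOX peak at P17. Rdh5 encodes the dehydrogenase that oxidises 11-cis-retinol to the chromophore. Its gene spans chr10:128913588-128920037 on the minus strand. Its SOX9 peak at P2 (chr10:128921690-128924156, 2467 bp) covered the start of Bloc1s1, a lysosome biogenesis gene. Bloc1s1 lies on the same strand, and its downstream end overlaps the upstream end of the Rdh5 span. Relative to the Rdh5 start the SOX9 peak ran from -4859 to -2393.

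The H3K4me3 peaks in the Rdh5 window were likewise those of its neighbours. At both ages 1 covered the start of Bloc1s1 and 1 that of Cd63, a membrane protein gene, with widths of 2217 to 4147 bp, and the one nearest to Rdh5 stopped 1081 bp from the gene at P2 and 1140 bp at P17. A P2 H3K27ac peak of 4105 bp covered the Rdh5 start, and no P17 H3K27ac peak did. The 2 P17 H3K27ac peaks in the window lay over the starts of Cd63 and Bloc1s1.

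Rpe65 encodes the isomerase that forms 11-cis-retinol from retinyl esters. Its gene spans chr3:159599075-159625307 on the plus strand, and no peak of any list lay in its window. The nearest P2 peaks were 23112 bp away for H3K27ac, 101682 bp for H3K4me3, 1650466 bp for SOX9 and 5653753 bp for SOX8. At P17 the nearest H3K4me3 peak was 1036602 bp away, a distance that 3.65% of all genes on chromosomes with such peaks reached or exceeded, and the nearest H3K27ac peak 1561656 bp away. The nearest P17 SOX9 and SOX8 peaks were 7201680 and 7201401 bp away.

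Lrat encodes lecithin retinol acyltransferase, which makes the retinyl esters that RPE65 uses. Its gene spans chr3:82892582-82903974 on the minus strand. Its window held 1 peak, of P2 H3K27ac, 763 bp wide and 159 bp before the start (chr3:82904133-82904895). This peak was wider than or as wide as 17.2% of its list. The nearest H3K4me3 peak was 151007 bp away at P2 and 150145 bp away at P17, while the promoter held as many CpG dinucleotides as, or more than, 68.7% of promoters.

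Stra6 encodes the membrane receptor that takes up retinol from its carrier in blood. RefSeq gives it a span of 90212 bp at chr9:58063793-58154004 on the plus strand, while its 4 starts in the promoter table lie between 58129088 and 58134665, so most of the span is upstream of these starts. The P2 SOX9 peak at Stra6 (chr9:58110756-58114088, 3333 bp) ran from -18332 to -15000 relative to the earliest of them, inside the span of the neighbouring Ccdc33. It overlapped P2 H3K27ac over all 3333 bp and no H3K4me3 or SOX8 peak of either age. With Stra6 counted from its earliest start, it had no SOX peak. H3K27ac formed 25 peaks of 630 to 8300 bp at P2, covering 79.5% of the window and reaching the neighbouring gene Islr. Most of these P2 peaks lay before the earliest start of Stra6, nearly all of them over the span of Ccdc33. At P17, H3K27ac formed 1 peak of 6306 bp, covering 6.29% of the window.

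**Figure D3:**
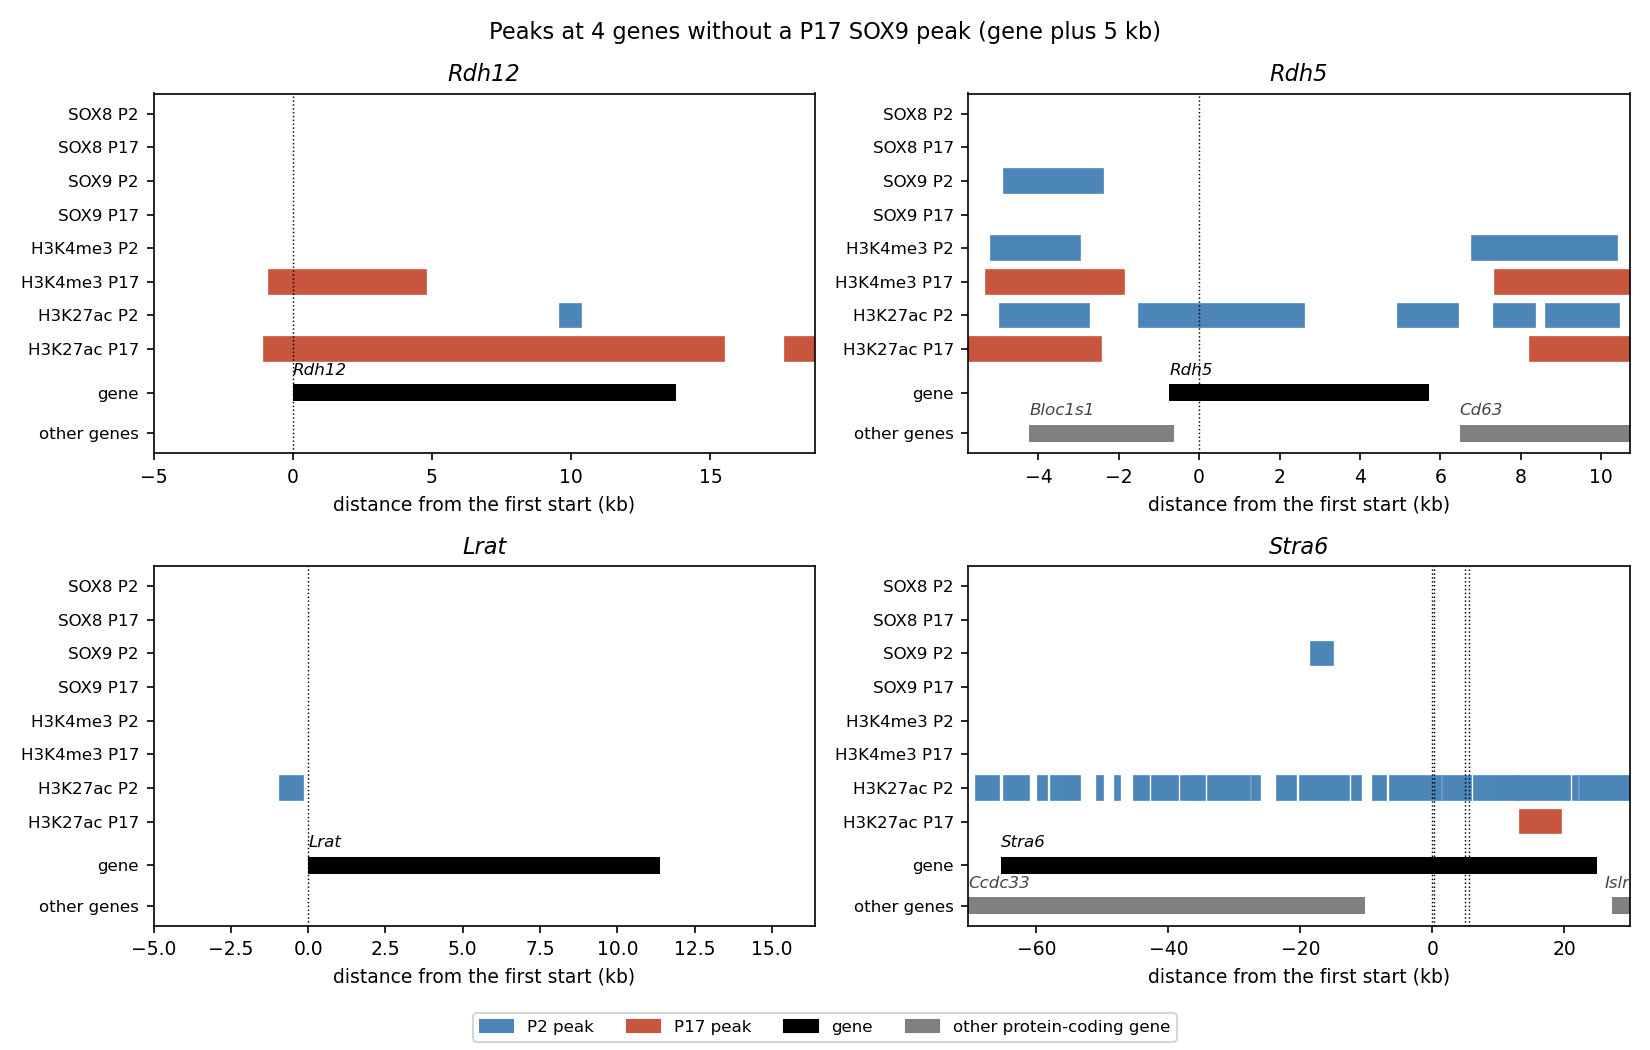
Peaks of the 8 lists along the windows of Rdh12, Rdh5, Lrat and Stra6, with distance in kb from the earliest start, dotted lines at each start and peaks cut at the window's ends. H3K4me3 crosses the start of Rdh12 at P17, lies over the neighbours Bloc1s1 and Cd63 at Rdh5, and is absent from the lists at Lrat and Stra6.

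Peaks over the starts themselves were counted next. Of the 8 genes with a promoter entry, a P2 H3K4me3 peak overlapped the promoter of 1 (Rbp3), against 44.8% of 17491 genes, and a P17 peak that of 3 (Rbp3, Rdh8 and Rdh12), against 46.1%. H3K27ac overlapped the promoters of 6 at P2 and 4 at P17, against 62.0% and 46.9%. A SOX peak overlapped the promoter of 1 gene, Rbp3, in 1 list, P17 SOX9, where the share of all genes was 10.3%. None of the 8 had one in the P2 SOX9 list (22.9% of all genes), the P2 SOX8 list (12.2%) or the P17 SOX8 list (8.44%). The differences between these counts and the shares of all genes were not tested.

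In total 11 SOX peaks lay in the windows of 6 genes. Of these, 1 covered the start of its own gene and 3 covered the start of a neighbour (Bloc1s1, Col5a3 and Lrit1), while for the 4 peaks at Rdh10 and Rpl7 no start is given in the table. H3K27ac of the same age was overlapped by 11 of 11, where the shares of all peaks were 99.7% and 84.0% for SOX8 at P2 and P17 and 99.4% and 84.3% for SOX9. H3K4me3 of the same age was overlapped by 8 of 11, where the shares were 90.1% and 69.7% for SOX8 and 79.8% and 66.5% for SOX9. The peaks outside H3K4me3 were the P2 SOX9 peak at Stra6 and the P17 SOX8 peaks at Rbp3 and Rdh8. Both counts are near those of the lists as a whole.

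Widths of the SOX peaks ran from 49 to 9737 bp. Medians at these genes were near those of the full lists for SOX9, at 3333 against 2669 bp at P2 and 5790 against 5336 bp at P17. For H3K4me3 they were further apart, at 5977.5 against 3542 bp at P2 and 5640 against 3703 bp at P17. Those of H3K27ac were 2267 against 1166 bp at P2, and 16544 against 3268 bp at P17. Of the 46 P2 H3K27ac peaks counted, 25 lay at Stra6. Peaks that reach beyond a window were counted at full width, and a wide peak meets a window more easily. The full lists also hold peaks outside gene windows, so the sets compared are not alike. The P17 H3K27ac widths at the 9 genes ran from 2167 bp at Rdh10 to 67469 bp at Rgr. Wide P17 peaks lay at Rbp3, Rdh8, Rdh10, Rdh12 and Rgr, and those at Rdh5 (2523 and 3284 bp) and Stra6 (6306 bp) were narrower.

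**Figure D4:**
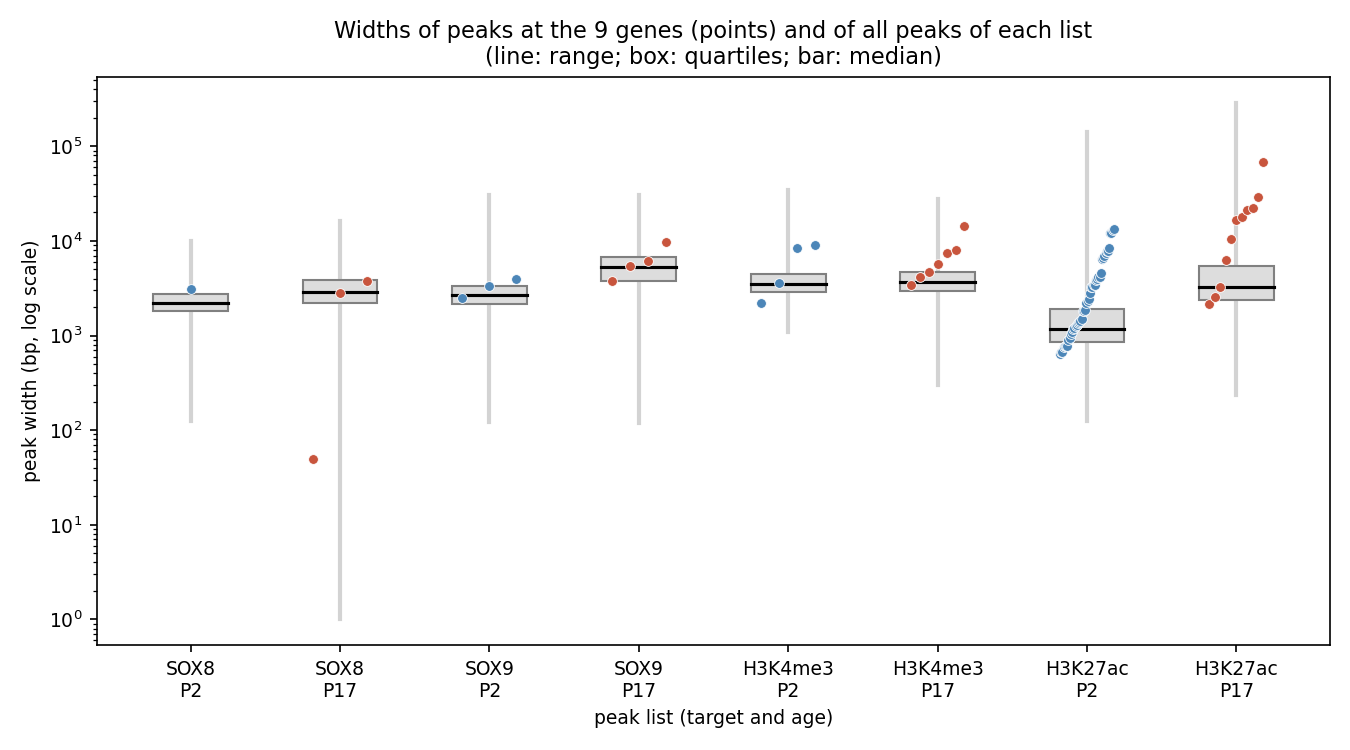
Width in bp on a log axis of each peak at the 9 genes (points; blue P2, red P17) over the range, quartiles and median of all peaks in each list. At P17 most H3K27ac points lie above the box of the list, up to 67469 bp, and 1 SOX8 point lies at 49 bp.

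The lists of both ages were then compared gene by gene. SOX9 was listed at P17 and not at P2 for 3 genes (Rbp3, Rdh8 and Rgr; 4.34% of all genes), at P2 and not at P17 for 2 (Rdh5 and Stra6; 16.3%), and at both ages for Rdh10 (11.4%). SOX8 was listed at P17 and not at P2 for 2 (Rbp3 and Rdh8; 4.94%), at both ages for Rdh10 (8.08%), and at P2 alone for none (7.0%). H3K4me3 was listed at P17 and not at P2 for 3 (Rdh8, Rdh12 and Rgr; 5.0%), for none the other way round (3.40%), and at both ages for 3 (Rbp3, Rdh5 and Rdh10; 45.9%). H3K27ac was listed at P2 and not at P17 for 1 (Lrat; 25.1%), for none the other way round (0.315%), and at both ages for 7 (56.7%).

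A further 43 genes of retinoid handling, all matched to the table, were counted in the same way. P2 SOX9 peaks lay at 8 of them (18.6%, against 27.7% of all genes) and P17 SOX9 peaks at 5 (11.6%, against 15.7%). SOX8 peaks lay at 4 of them at each age (9.3%, against 15.1% at P2 and 13.0% at P17). All 4 SOX shares were below those of all genes. H3K4me3 peaks lay at 16 of the 43 genes at each age (37.2%, against 49.3% at P2 and 50.9% at P17). H3K27ac peaks lay at 41 at P2 (95.3%, against 81.8%) and at 22 at P17 (51.2%, against 57.0%). SOX9 peaks at both ages lay at 3 of the 43 genes, where the share of all genes was 11.4%. These were the nuclear receptor genes Rara, Rxra and Rxrb, whose products bind retinoic acid or pair with its receptors. The widest at Rara spanned 11377 bp at P2 and 8672 bp at P17, at Rxra 4405 and 15321 bp, and at Rxrb 3170 and 4540 bp. P17 SOX9 peaks without one at P2 lay at 2 of the 43 genes, where the share of all genes was 4.34%. One of them was Dhrs3, which encodes a retinaldehyde reductase, with a peak of 6753 bp.

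P2 SOX9 peaks without one at P17 lay at 5 of the 43 genes, where the share of all genes was 16.3%. These were Rlbp1, Rbp7, Rdh11, Crabp2 and Rarb, with widths of 1529 bp at Rarb to 3830 bp at Rlbp1. Rlbp1 encodes the retinaldehyde-binding protein of Müller glia and pigment epithelium. Its P2 SOX8 peak spanned 2167 bp, with H3K4me3 of 3264 bp, and SOX8, SOX9 and H3K4me3 had no P17 peak there. Abca4, the retinoid transporter of photoreceptor discs, had no SOX peak, and had H3K4me3 at P17 (7913 bp) but not at P2.

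Marker lists of cell types in and next to the retina were counted in the same lists, and they differed in direction. Of 12 photoreceptor markers, 7 had H3K4me3 at P2 and 12 at P17, and 3 had SOX9 at P2 and 11 at P17. Of 12 Müller glia markers, 9 had H3K4me3 at P2 and 5 at P17, and 6 had SOX9 at P2 and 1 at P17. Of 12 pigment epithelium markers, 2 had H3K4me3 at P2 (Best1 and Pmel) and 3 at P17 (with Krt18), 2 had SOX9 at P2 and 0 at P17, and the pigment genes Tyr, Tyrp1, Dct and Mlana had no H3K4me3 at either age. Of 8 endothelial and microglial markers, 2 had H3K4me3 at each age. H3K27ac lay at all markers of these 4 lists at P2. At P17 it lay at 12 of 12 photoreceptor, 9 of 12 Müller glia, 4 of 12 pigment epithelium and 3 of 8 endothelial and microglial markers. Over all genes, the shares with a peak at P2 and P17 were 81.8% and 57.0% for H3K27ac. They were 49.3% and 50.9% for H3K4me3, and 27.7% and 15.7% for SOX9. Lrat, Stra6, Rdh5 and Rdh10 had less of the window, or none of it, under H3K27ac at P17 than at P2. Rbp3 had nearly the same part, and Rdh8, Rdh12 and Rgr had more. The median over all genes fell from 20.9% of the window at P2 to 4.85% at P17. The part of these cell types in the results for single genes was not tested.

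**Figure D5:**
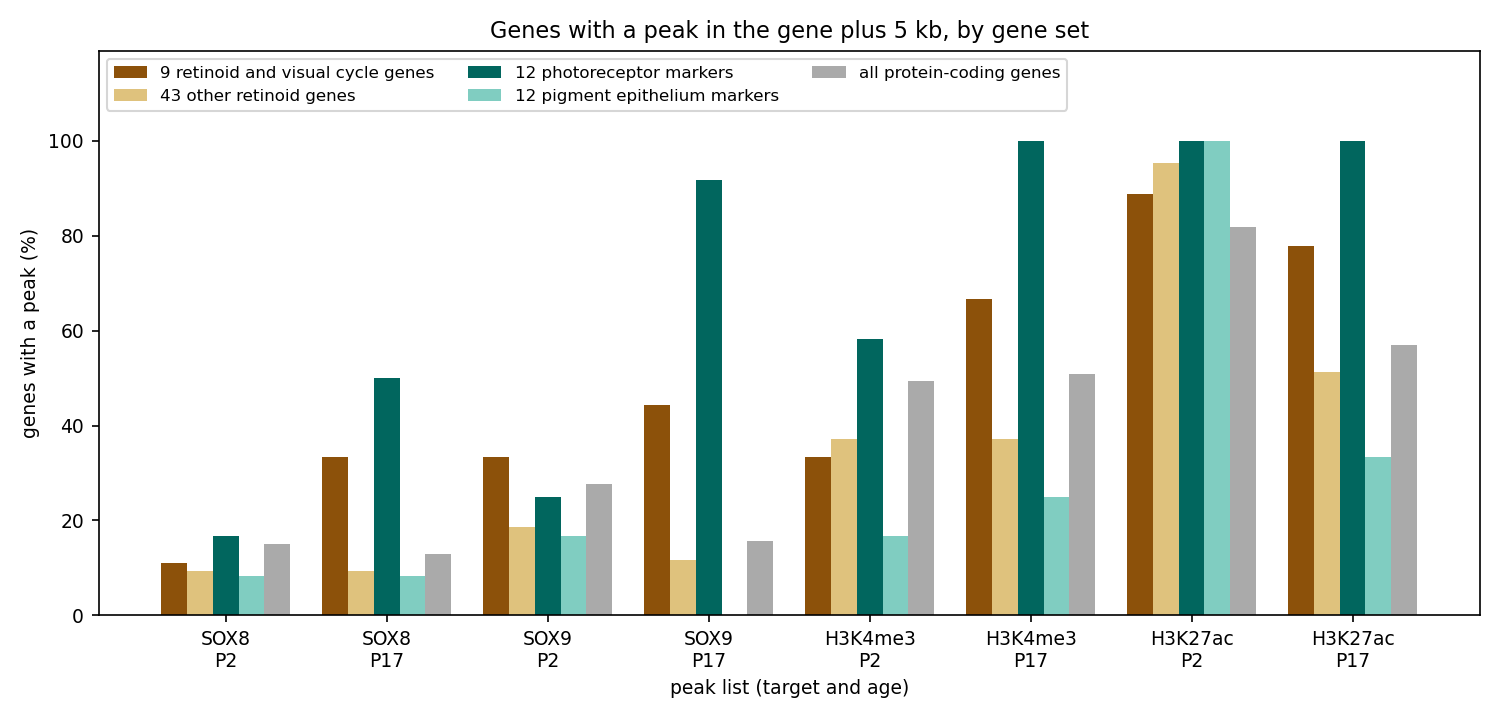
Percent of genes with a peak in the gene plus 5 kb in each list, for the 9 genes, 43 other retinoid genes, 12 photoreceptor markers, 12 pigment epithelium markers (some sets share a gene) and all protein-coding genes. In the P17 SOX9 list the bars are 44.4% for the 9 genes, 91.7% for photoreceptor markers, 0% for pigment epithelium markers and 15.7% for all genes.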

How the data were processed

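CUT&RUN libraries were aligned with Bowtie2 and peaks called with SEACR on GRCm38, per the submitters' processing notes, which give no versions. Settings, the use of IgG and the way libraries were combined are not given in the sources used here. The deposited peak lists hold start and end positions, and the score that the authors deposited was 0 in every row. Each list was taken as the pooled list of the target and age in its name.

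Positions were converted to count from 1 and matched to RefSeq genes and starts of GRCm38.p6. As a check of the build, 68.2% (P2) and 63.3% (P17) of the centres of H3K4me3 peaks lay within 1 kb of a start, against 2.67% and 2.55% after a shift of 10 kb. The table gives no exons, so exons, introns and UTRs were not assigned. The promoter table gave the strand. Interval counts were tested on simulated data. Python 3.11.15, numpy 2.4.6, pandas 2.3.3 and matplotlib 3.10.9 were used.

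The genes, lists, motifs and alternatives were chosen with earlier results of these data known. Named genes are the 9 genes, other retinoid genes with a SOX peak (1 is not reported here), neighbours that share a peak, and Abca4, the 7 pigment epithelium markers named and the genes of the region at Rgr, which were chosen after their values were seen. Alternatives were other windows, peak centres, the nearest gene and shorter lists. A shorter span of Stra6 and the removal of peaks under 100 bp were chosen after seeing the data.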

Additional observations from a re-analysis of the deposited data

How the results depend on the processing

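Of 84 alternative counts for 10 results, 72 stayed within 1.5 times the reported count and 12 did not. Percentages in brackets are shares of all genes under the same rule. P17 SOX8 peaks lay at 3 genes (13.0%). They lay at 1 (Rdh10) with no flank (10.9%), with 2 kb on each side (11.8%) or with the nearest gene only (9.52%). Within 1 kb of the start (of either gene end for Rdh10) they also lay at Rdh10 alone (8.9%). With the wider 50% of the list they lay at 1 (Rbp3; 7.17%). P2 SOX8 peaks lay at 1 gene (15.1%), and at 0 with the nearest gene only (11.4%). P2 SOX9 peaks lay at 3 genes (27.7%). They lay at 1 (Rdh10) within 1 kb of the start (22.6%) and at 1 (Stra6) with the nearest gene only (21.7%). P17 SOX9 peaks lay at 4 genes (15.7%), at 2 with no flank (Rbp3 and Rdh10; 13.5%) and at 1 with the nearest gene only (Rbp3; 11.1%). SOX peaks overlapping H3K4me3 numbered 8 of 11, and 5 of 6 with no flank. Those overlapping H3K27ac numbered 11 of 11, and 6 of 6 with no flank. The H3K4me3 and H3K27ac counts of genes stayed within 1.5 times in all 10 alternatives each. When only as many of the widest P2 H3K27ac peaks were kept as the P17 list holds, 6 of the 9 genes had one in place of 8, without Rdh12 and Lrat, against 40.5% of all genes. No paired analysis was possible because there is 1 list for each target and age, with no values by replicate.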

Other observations

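The interval next to Rgr held further photoreceptor genes. Within the P17 H3K27ac peak of 67469 bp there, the P17 H3K4me3 list had 3 peaks, of 7440 bp over the start of Lrit1, 8563 bp over that of Lrit2 and 6562 bp over that of Cdhr1, a cadherin gene of photoreceptor outer segments. At P2 the same interval held no H3K4me3 peak and 15 separate H3K27ac peaks with a median width of 1202 bp, of which 1 each covered the starts of Rgr, Lrit1, Lrit2, Cdhr1 and 2610528A11Rik. The interval held 1 SOX9 peak, the P17 peak over the start of Lrit1 that is also counted for Rgr, and no SOX8 peak at either age.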
